A study of Mus musculus with 6 samples.

Results

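The regulators of G protein signalling (RGS) are described here by the expression of 10 of their genes in thymic tuft cells of the mouse, Rgs1, Rgs2, Rgs4, Rgs5, Rgs10, Rgs13, Rgs16, Rgs18, Rgs19 and Rgs21. They were chosen by gene symbol from 55471 genes in the deposited table, and all 10 were found there. The choice was made with measured values of these same libraries known, above all the higher level of Rgs13 in 1 of the groups. Every contrast of these 10 genes between the groups is therefore given as a description, and nothing is read from its adjusted p.

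The study sequenced RNA of thymic tuft cells sorted on the surface protein L1CAM and lysed for SMART-seq, a full-length method for small amounts of RNA. All 6 libraries came from mice with floxed alleles of Ikzf1 (Ikzf1fl/fl), the gene of the transcription factor Ikaros, and the question was how loss of the gene alters expression in these cells. One group of 3 was Foxn1-Cre negative, with the genotype given as WT. The other group of 3 was Foxn1-Cre positive, with the genotype given as KO. Foxn1 is active throughout the thymic epithelium, so recombination by this Cre is not limited to tuft cells. The labels used here give no age, sex or treatment and do not say whether animals were pooled. In the deposited table the Foxn1-Cre positive group was taken to be Ko1, Ko2 and Ko3, by the word KO in the labels. Het1, Het2 and Het3 then fell to the Foxn1-Cre negative group by elimination. No label uses the word Het, so the labels do not state this match, and it is uncertain. All directions below follow the column names. No column could be tied to 1 sample.

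Library totals ran from 12238428 to 31435787 reads, with 26727 to 35130 genes detected by at least 1 read. Mitochondrial genes took 8.66% to 12.1% of reads. The targeted gene went against its label, because Ikzf1 was at 301, 187 and 273 normalized counts in the Het libraries and at 1572, 1463 and 1717 in those labelled Ko. This was 6.25-fold more in the libraries labelled Ko, with a limma adjusted p of 0.0105, which rose above the threshold without Het2, Het3 or Ko3, to at most 0.125. Reads were not resolved by exon, so the floxed part was not examined. All 20 listed tuft cell markers, with the sorted L1cam among them, were measured. Their summed level was 154994 to 225549 in Het and 211553 to 240457 in the libraries labelled Ko. There was no library of other cells to compare with, so this does not test the tuft cell label. A normalized count is the number of reads of a gene divided by 1 size factor per library. In these bulk libraries fewer cells of a type and less RNA per cell cannot be told apart.

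RGS proteins share a domain that binds active G alpha subunits and speeds their hydrolysis of GTP, which ends the signal of a G protein-coupled receptor. Most act on the Gi and Gq classes, and Rgs2 is known for its preference for Gq. Tuft cells are chemosensory epithelial cells that use taste signalling proteins such as alpha-gustducin, a G alpha subunit of the Gi class, phospholipase C beta 2 and the channel TRPM5. Rgs13 is a small R4 protein best known from germinal centre B cells and mast cells, and its transcript is a known marker of tuft cells. Rgs21, a further small R4 protein, was described in taste receptor cells.

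The 10 genes belong to 3 of the RGS subfamilies. The R4 subfamily holds 8 of them, Rgs1, Rgs2, Rgs4, Rgs5, Rgs13, Rgs16, Rgs18 and Rgs21, while Rgs19 is of the RZ subfamily and Rgs10 of the R12 subfamily. By position, 8 members lie on chromosome 1, Rgs19 on chromosome 2 and Rgs10 on chromosome 7. In the GENCODE M21 annotation Rgs2, Rgs13, Rgs1, Rgs21 and Rgs18 are 5 neighbouring protein-coding genes on the minus strand of chromosome 1, between Uchl5 and Brinp3. Rgs5 and Rgs4 are neighbours elsewhere on chromosome 1.

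The DNA before the start sites of Rgs13, Rgs21 and Rgs2 is shown because these are the 3 genes of the run with the most reads, and Rgs21 had the opposite sign to Rgs13 and Rgs2 in the contrast of the groups. Each line is the 250 bases upstream of the start, 5′ to 3′ on the minus strand, from RefSeq on GRCm38.p6. The locations are chr1:144177373-144177622 for Rgs13, chr1:144567668-144567917 for Rgs21 and chr1:144004150-144004399 for Rgs2. Capitals mark matches, on either strand, to TGGGAA (a core bound by Ikaros), ATGCAAAT (the octamer bound by POU factors), GGGCGG (the GC box) or TATAAA (the TATA box).
Rgs13: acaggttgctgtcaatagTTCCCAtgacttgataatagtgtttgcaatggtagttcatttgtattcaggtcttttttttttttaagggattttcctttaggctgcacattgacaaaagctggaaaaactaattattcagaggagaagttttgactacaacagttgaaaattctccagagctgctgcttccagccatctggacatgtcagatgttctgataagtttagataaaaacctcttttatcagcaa
Rgs21: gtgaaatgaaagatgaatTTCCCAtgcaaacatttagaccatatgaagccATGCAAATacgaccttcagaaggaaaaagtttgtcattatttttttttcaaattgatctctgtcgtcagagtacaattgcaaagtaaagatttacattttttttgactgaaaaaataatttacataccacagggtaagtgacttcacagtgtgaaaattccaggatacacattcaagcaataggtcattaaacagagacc
Rgs2: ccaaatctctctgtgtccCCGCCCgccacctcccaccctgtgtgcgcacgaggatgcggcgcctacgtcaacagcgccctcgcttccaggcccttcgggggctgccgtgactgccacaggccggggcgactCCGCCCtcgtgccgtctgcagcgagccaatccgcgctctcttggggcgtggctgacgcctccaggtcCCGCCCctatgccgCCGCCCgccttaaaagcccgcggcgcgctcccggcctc

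Composition was computed over the full 300-base window of each start, which runs from 250 bases before it to 50 bases after it. Rgs13 and Rgs21 had windows poor in G and C, at 36.7% and 33.3%, with 0 and 2 CpG dinucleotides. The window of Rgs2 was 70.0% G and C with 33 CpG, against medians of 52.7% and 7 over 32851 promoters in the table. A TGGGAA match, here as its complement TTCCCA, began 232 bases before the start in both Rgs13 and Rgs21, and 25.6% of all promoters hold this motif. The octamer began 200 bases before the start in Rgs21. Of the members it also occurred in Rgs4, and 1.74% of all promoters hold it. Rgs2 held 4 GC boxes, a motif that also occurred in Rgs10, Rgs16 and Rgs19 and in 35.7% of all promoters. Rgs4 held a TATA box, found in 13.6% of promoters. No 2 of these motifs overlapped in the printed sequences. Promoters were matched by symbol for 8 of the 10 members, all but Rgs1 and Rgs18, and Rgs19 had 3 of them. A match is a description of letters and not of binding.

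Levels of different genes were compared as normalized counts per kilobase of exon, with lengths from GENCODE M21. Rgs13 was the most abundant member in all 6 libraries, at 19338 ± 1598 per kilobase in Het (SD, n = 3) and 49286 ± 9193 in the libraries labelled Ko. Among the 55144 genes with a length, it held places 46, 61 and 53 in Het and 19, 20 and 13 in those labelled Ko. Rgs2 came next, at 5234 ± 711 and 6054 ± 627 per kilobase. The level of Rgs13 was thus 3.47, 3.51 and 4.19 times that of Rgs2 in the Het libraries and 7.70, 7.28 and 9.40 times in those labelled Ko. The other 8 members were far lower, none above 760 per kilobase as a group mean.

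In Het the order per kilobase went on with Rgs21 at 760 ± 288, Rgs4 at 337 ± 45.2, Rgs19 at 246 ± 25.3, Rgs5 at 223 ± 143, Rgs1 at 198 ± 303, Rgs10 at 102 ± 30.1, Rgs16 at 77.0 ± 95.9 and Rgs18 at 1.72 ± 2.20. The libraries' values of neighbours in this order overlapped from Rgs19 down to Rgs16, so that part of the order is within the spread. In the libraries labelled Ko, Rgs4 at 395 ± 303, Rgs21 at 380 ± 69.7, Rgs19 at 369 ± 98.7 and Rgs5 at 302 ± 117 overlapped with their neighbours in turn. Rgs10 at 87.7 ± 27.6 and Rgs16 at 84.6 ± 42.4 also overlapped there. Rgs1 at 13.0 ± 20.7 and Rgs18 at 0.170 ± 0.294 were lowest, with no overlap between these 2 or with Rgs16.

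**Figure D1:**
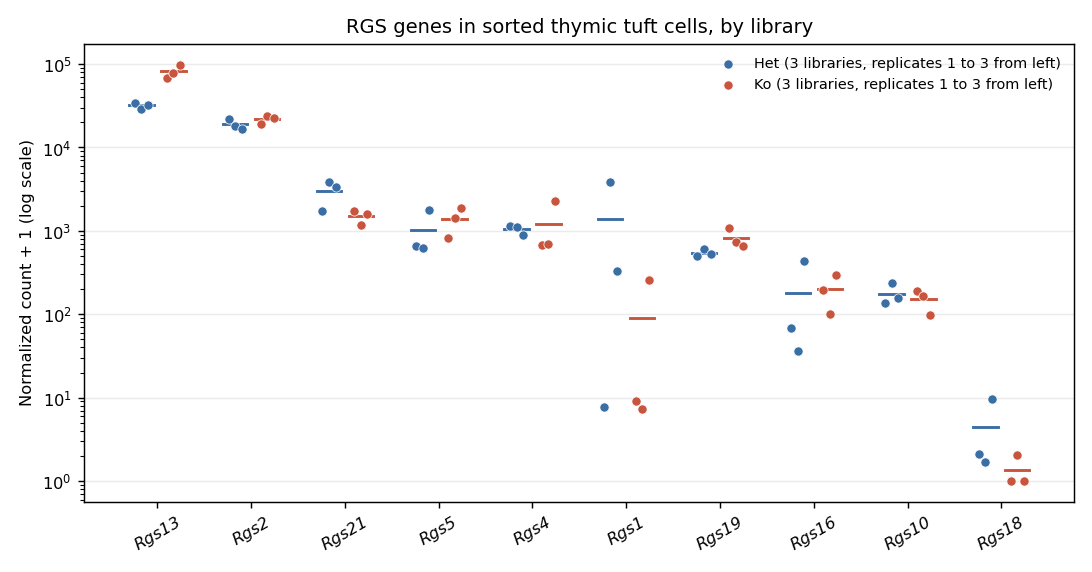
Normalized counts plus 1 of the 10 RGS genes on a log axis, 1 point per library (Het in blue, libraries labelled Ko in red), with a line at each group's mean. Rgs13 and Rgs2 stand above the other genes in every library, and the Rgs13 points run from 29287 to 34571 in Het and from 68079 to 98061 in the libraries labelled Ko.

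Rgs13 (ENSMUSG00000051079) was at 34571, 29287 and 32157 normalized counts in Het and at 68079, 78565 and 98061 in the libraries labelled Ko. Each of the latter was above every Het library. The means were 32005 ± 2645 and 81568 ± 15215 (SD, n = 3), a 2.55-fold ratio. On the log2(value + 1) scale the difference was 1.34 ± 0.14 (SE), at a limma adjusted p of 0.00868 over the 19416 genes tested, the fourth smallest p of all. By this threshold of 0.05, 0.288% of the genes tested were called higher in the libraries labelled Ko, 0.525% lower, and 0.814% in either direction. Since Rgs13 was chosen with this contrast known, its place in the fit is a description.

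This value rested on 125354 reads of Rgs13 in Het and 210468 in the libraries labelled Ko, though such reads are not independent molecules. The adjusted p was 0.0178 with edgeR and 2.28e-12 with DESeq2, and the authors' deposited table gives a log2 fold change of 1.35 with an adjusted p of 5.46e-08. Leaving out Het2 or Het3 kept the limma difference at 1.27 and 1.34 but raised its adjusted p to 0.0995 and 0.131, and then no gene of the table was called, so every other limma call given here was lost too. At an unadjusted p under 0.05 limma then had 2127 and 2085 genes, while without these libraries edgeR called 6 and 0 and DESeq2 called 870 and 867.

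Seen as a share of sequencing, Rgs13 took 0.197%, 0.164% and 0.179% of all reads in Het and 0.394%, 0.442% and 0.559% in the libraries labelled Ko. The 10 genes together took 0.315% to 0.345% and 0.534% to 0.730%. Rgs13 made up 50.6% to 57.0% of the reads of the 10 genes in Het and 73.7% to 76.6% in the libraries labelled Ko. Without Rgs13 the other 9 members summed to 26055, 28594 and 24324 normalized counts in Het and to 24023, 27970 and 29954 in those labelled Ko. These sums overlapped between the groups, while the shares of Rgs13 did not.

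Rgs2 (ENSMUSG00000026360), an R4 protein that dampens Gq signalling, lies next to Rgs13. Its normalized counts were 21837, 18298 and 16819 in Het and 19369, 23637 and 22871 in the libraries labelled Ko. The groups overlapped, and the log2 difference was 0.21 ± 0.13 with a limma adjusted p of 0.542.

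Rgs21 (ENSMUSG00000098509) had the opposite sign to Rgs13. It was at 1716, 3877 and 3396 normalized counts in Het and at 1709, 1188 and 1600 in the libraries labelled Ko. The groups did not overlap, but Het1 lay only just above Ko1. The means were 2997 ± 1135 and 1499 ± 275, a ratio of 2.0 of Het over the libraries labelled Ko. The log2 difference of -0.93 ± 0.31 did not pass limma's threshold (adjusted p = 0.215). DESeq2 gave 0.0278, edgeR 0.235, and the authors' deposited table an adjusted p of 0.0762. Per kilobase, Rgs13 stood 18.0 to 48.0 times above Rgs21 in Het and 94.9 to 157 times above it in the libraries labelled Ko.

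Rgs1 (ENSMUSG00000026358), a regulator of chemokine responses known from lymphocytes, varied more between replicates than between groups. It was at 6.71, 3803 and 326 normalized counts in Het and at 8.23, 6.22 and 256 in the libraries labelled Ko. Het2 alone held most of its reads, 5356 of 5594 in that group. The log2 difference was -3.04 ± 2.07 with a limma adjusted p of 0.575, and -0.96 without Het2. Several marker genes of blood cells, picked out after their values were seen, were also highest in Het2. The B cell gene Cd79a was at 108 there and at most 10.1 in any other library. The macrophage genes Adgre1, Csf1r and Cd68 were at 193, 165 and 450 in Het2, against at most 50.5, 59.2 and 209 elsewhere, and the mast cell gene Tpsab1 was at 61.1 against at most 3.09. The summed lists did not peak in Het2 for B cells, at 2703 and mostly Cd79b (1876), or for T cells and thymocytes, at 441. The macrophage and dendritic cell sum was lowest of the Het libraries there, at 54065, 4772 and 9465 in Het1, Het2 and Het3. The macrophage gene Lyz2, at 53300, 3666 and 8729, and the mast cell gene Cpa3, at 91.7, 0 and 113, were also lowest of Het in Het2. The mast cell sum was highest in Het2, at 5592. The part of other cells in the Rgs1 level was not tested.

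Rgs18 (ENSMUSG00000026357), known from platelets and their precursors, was barely detected. Its normalized counts were 1.12, 0.710 and 8.66 in Het and 0, 1.04 and 0 in the libraries labelled Ko. This was 9 reads against 1 read, a depth-adjusted ratio of 6.10 with an exact 95% interval of 0.845 to 267 that covers counting error only. It fell below the mean of 10 required for testing.

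**Figure D2:**
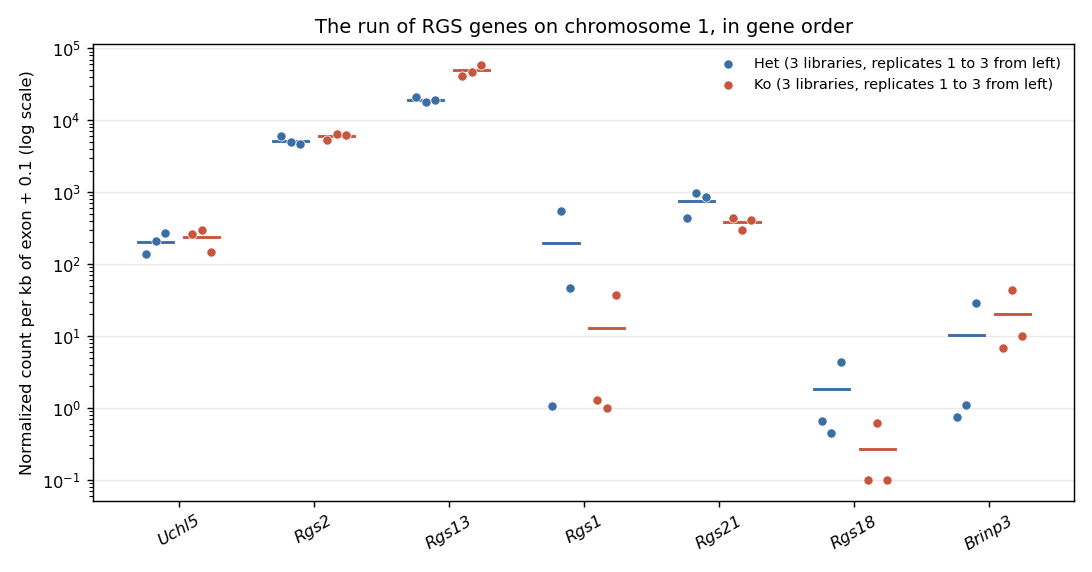
Normalized counts per kilobase of exon plus 0.1, on a log axis, for the 5 RGS genes of the chromosome 1 run and the genes on either side, in gene order, with 1 point per library and a line at each group mean. Rgs13 and its neighbour Rgs2 are high in all 6 libraries, Rgs21 is lower, and Rgs18 is near the floor.

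The genes that flank the run were tested in the same fit. Uchl5 was at 600 ± 193 normalized counts in Het and 690 ± 236 in the libraries labelled Ko (limma adjusted p = 0.881). Brinp3 was at 71.2 ± 113 and 141 ± 144 (adjusted p = 0.541). Within the run, Rgs13 alone was called, a description because it was chosen with this contrast known, against 0.814% of all genes tested. The signs of the 4 tested members were split, with Rgs13 and Rgs2 positive and Rgs1 and Rgs21 negative.

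The remaining R4 members were expressed at moderate levels with wide spreads. Rgs4 (ENSMUSG00000038530), a regulator best known from brain and heart, was at 1128, 1120 and 882 normalized counts in Het and at 668, 693 and 2306 in the libraries labelled Ko. Ko3 was the highest of the 6 and Ko1 and Ko2 the lowest. Its log2 difference was -0.02 ± 0.44 (limma adjusted p = 0.990), and its sign was positive in 16 of 29 alternative analyses.

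Rgs5 (ENSMUSG00000026678), a known pericyte gene and the neighbour of Rgs4, was at 660, 616 and 1766 normalized counts in Het and at 813, 1438 and 1872 in the libraries labelled Ko. Het3 and Ko3 were the highest of their groups, and the groups overlapped. The log2 difference was 0.54 ± 0.44 with a limma adjusted p of 0.653. The summed pericyte and smooth muscle markers were 894, 1181 and 804 in Het and 953, 2481 and 980 in the libraries labelled Ko. The highest sum, in Ko2, was mostly Acta2, at 1662, and the part of these cells in the Rgs5 level was not tested.

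Rgs16 (ENSMUSG00000026475), an inducible regulator known from lymphocytes and liver, was at 67.1, 34.8 and 439 normalized counts in Het and at 197, 99.5 and 298 in the libraries labelled Ko. The spread within Het exceeded the difference between the means, 180 ± 224 and 198 ± 99.3. The log2 difference was 0.82 ± 0.91 (limma adjusted p = 0.757). Rgs16 overlaps an antisense gene, Gm28513, and the sources used here do not say whether the counting used strand.

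Rgs19 (ENSMUSG00000002458), the RZ protein also called GAIP, was at 503, 612 and 531 normalized counts in Het and at 1071, 742 and 653 in the libraries labelled Ko. The groups did not overlap, with means of 549 ± 56.5 and 822 ± 220, a 1.5-fold ratio. The log2 difference of 0.55 ± 0.30 did not pass limma's threshold (adjusted p = 0.467).

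Rgs10 (ENSMUSG00000030844), a small R12 protein known from microglia and platelets, was at 135, 233 and 156 normalized counts in Het and at 188, 165 and 97.4 in the libraries labelled Ko. The groups overlapped, and the log2 difference was -0.23 ± 0.54 (limma adjusted p = 0.899). It overlaps the same-strand gene Gm15503, so some reads could belong to either.

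In all, 9 of the 10 genes had a mean of at least 10 and were tested, and 1 of the 9 was called, against 0.814% of all genes. The median log2 difference of the 9 was 0.21, with 5 positive and 4 negative, beside a median of -0.05 over all genes tested. For 3 of the 9, Rgs13, Rgs21 and Rgs19, the groups did not overlap, as they did not for 18.4% of all genes tested. Because the members were chosen with this contrast known, these shares are not read further. The other 8 tested members had adjusted p-values from 0.215 to 0.990.

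**Figure D3:**
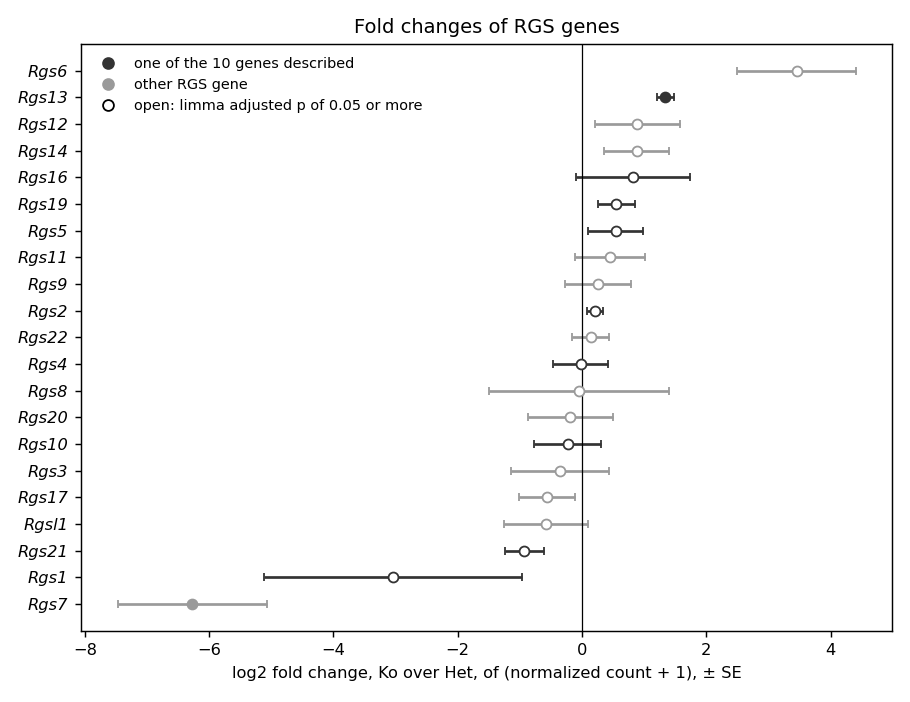
Log2 fold change of (normalized count + 1), libraries labelled Ko over Het, with its SE, for the 9 tested members (dark) and the 12 other RGS genes (grey), filled where limma's adjusted p was under 0.05. The filled points are Rgs13 at 1.34 and Rgs7 at -6.27, and the open ones lie on both sides of 0.

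The 12 other RGS genes were all tested. None rose and 1 fell, Rgs7, against 0.288% higher and 0.525% lower of all genes tested. Their median log2 difference was 0.05. This list and those that follow were chosen with earlier results of these data known, so their shares are not read further. Rgs7 encodes an R7 regulator, a class known from neurons that works as a complex with the atypical G beta subunit of Gnb5 and a membrane anchor, Rgs7bp. It was at 78.9, 213 and 319 normalized counts in Het and at 0, 2.07 and 2.86 in the libraries labelled Ko. The groups were far apart, at 662 reads against 4, a depth-adjusted ratio of 112 with an exact 95% interval of 43.6 to 413 for counting error. The log2 difference of -6.27 ± 1.20 lay at the threshold, with an adjusted p of 0.0497 in limma, 0.0798 in edgeR and 3.09e-07 in DESeq2. Its size depends on the pseudocount, and it was -4.79 with a pseudocount of 5. With limma the call was lost without any single library (adjusted p 0.0774 to 0.237).

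Rgs6, a close R7 relative of Rgs7, had the opposite sign. It was at 44.7, 5.68 and 23.1 normalized counts in Het and at 223, 111 and 384 in the libraries labelled Ko. The groups did not overlap, with a 9.77-fold ratio of the means 24.5 ± 19.6 and 239 ± 137. The log2 difference of 3.45 ± 0.95 did not pass limma's threshold (adjusted p = 0.143), while DESeq2 gave 0.00615. Rgs9 and Rgs11, the other R7 genes, named here after their values were seen, overlapped between the groups at adjusted p-values of 0.889 and 0.795.

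Among 5 partner genes of the R7 class 3 were tested and none was called. Rgs7bp was at 2.80, 69.6 and 144 normalized counts in Het and at 1.03, 2.07 and 2.86 in the libraries labelled Ko. It overlapped through Het1, and the log2 difference of -3.55 ± 1.63 had a limma adjusted p of 0.379. Gnb5 was at 66.0, 107 and 0 in Het and at 29.8, 37.3 and 301 in those labelled Ko (adjusted p = 0.707). The sum of the 4 R7 genes was 455, 779 and 1162 in Het and 1199, 554 and 1256 in the libraries labelled Ko, while the sum of 10 R4 genes was 56192 to 60061 and 90895 to 127419. These sums follow Rgs13 in the R4 class.

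**Figure D4:**
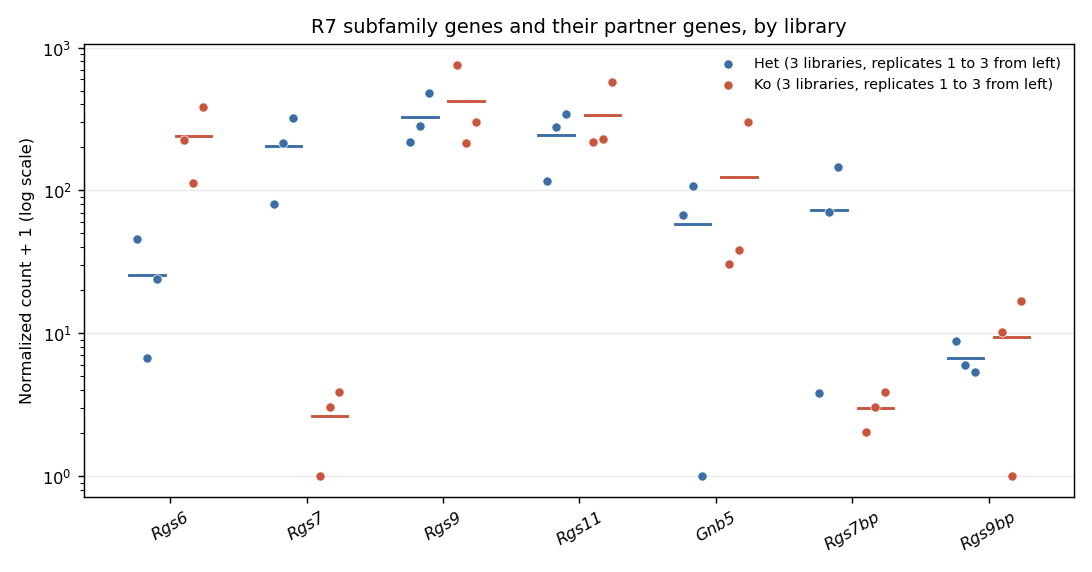
Normalized counts plus 1, on a log axis, of the R7 genes Rgs6, Rgs7, Rgs9 and Rgs11 and the partner genes Gnb5, Rgs7bp and Rgs9bp, with 1 point per library and a line at each group mean. Rgs7 is at 78.9 to 319 in Het and at most 2.86 in the libraries labelled Ko, and Rgs6 lies the other way.

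The G alpha subunits, the substrates of RGS proteins, held 15 tested genes, of which none was called. Their median log2 difference was 0.30. Gnat3, alpha-gustducin, averaged 22971 ± 8955 normalized counts in Het and 23129 ± 5515 in the libraries labelled Ko (limma adjusted p = 0.955). Gnai2, a Gi subunit, was at 4900 ± 968 and 6292 ± 237 (adjusted p = 0.380), and Gna11, a Gq subunit, at 424 ± 120 and 803 ± 223 (adjusted p = 0.290).

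Of 15 tested G beta and gamma genes none rose and 1 fell, against 0.288% higher and 0.525% lower of all genes tested. The median was -0.03, with 6 positive and 9 negative log2 differences. The groups did not overlap for 7 of the 15, in both directions, against 18.4% of all genes tested. Gnb3, the beta subunit of the taste pathway, fell from 11988 ± 1218 to 5274 ± 1657 normalized counts, a log2 difference of -1.22 ± 0.20 (limma adjusted p = 0.0341, edgeR 0.0788). This call was lost without any 1 library but Ko3, at limma adjusted p-values of up to 0.202. Its gamma partner Gng13 was at 27673 ± 2147 in Het and 17173 ± 2629 in the libraries labelled Ko, with an adjusted p of 0.0504 in limma and 0.00183 in DESeq2. Both had the sign opposite to Rgs13. Gnb2 had the same sign as Rgs13, at 3655 ± 615 in Het and 5472 ± 426 in the libraries labelled Ko (limma adjusted p = 0.162, DESeq2 0.0470). Gng4 had the opposite sign, at 712 ± 830 and 32.0 ± 30.5 (limma adjusted p = 0.217).

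Among 21 tested effectors of G proteins 1 rose and none fell, against 0.288% higher and 0.525% lower of all genes tested. The median was 0.15, with 12 positive and 9 negative log2 differences. The groups did not overlap for 10 of the 21, in both directions, against 18.4% of all genes tested. That share is not read further either. Pik3cg, the catalytic subunit of the phosphoinositide 3-kinase driven by G beta gamma, rose from 3495 ± 320 to 6923 ± 866 normalized counts. Its log2 difference was 0.98 ± 0.16 (limma adjusted p = 0.0328, edgeR 0.0509). The call was kept without Ko1 alone and lost without each other library, at up to 0.202. Adcy4 was at 59.6 ± 34.8 in Het and 384 ± 125 in the libraries labelled Ko, and Adcy5 at 1522 ± 468 and 3070 ± 608. Itpr2 was at 5591 ± 737 and 8436 ± 1102. For Adcy4, Adcy5 and Itpr2 the limma adjusted p was 0.0865, 0.116 and 0.131, and DESeq2 gave 0.00116, 0.00892 and 0.0261. Plcb2, the phospholipase of the taste pathway, was at 5556 ± 1373 in Het and 6052 ± 220 in the libraries labelled Ko (adjusted p = 0.783), and Trpm5 at 15047 ± 3150 and 18667 ± 1352 (adjusted p = 0.407). The 14 tested genes with a more distant RGS homology domain, such as axins and G protein-coupled receptor kinases, had no call and a median of 0.09. The 13 other tested modulators of G proteins had no call and a median of 0.24.

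Rgs13 is also a gene of B cells and mast cells, so the markers of both were read beside it. Of 12 B cell markers 8 were tested and 1 rose, against 0.288% of all genes tested. Their summed level was 2703 to 4078 normalized counts in Het and 5249 to 6883 in the libraries labelled Ko, and most of it was Cd79b, a chain of the B cell receptor, which rose from 2463 ± 581 to 5279 ± 538 (log2 difference 1.12 ± 0.20, limma adjusted p = 0.0433, edgeR 0.0826). That call was lost without each library but Het1, at up to 0.205. The B cell markers Ms4a1 and Fcrla were under 5 in all 6 libraries, and Cd79a was at 1.04 to 2.06 in the libraries labelled Ko. Ebf1 was at 547, 410 and 391 in Het and at 375, 830 and 596 in the libraries labelled Ko, and Bcl6 at 276, 158 and 189 and at 97.7, 392 and 339. Cd22 was at 75.9 in Ko3 and at most 12.1 elsewhere. These genes were picked out after their values were seen. Of 10 mast cell markers 5 were tested and none was called, with sums of 3480 to 5592 in Het and 2192 to 2674 in the libraries labelled Ko. The 5 tested all had negative log2 differences, with a median of -1.95. Mcpt4, Ms4a2, Fcer1a and Mrgprb2 were under 5 in all 6 libraries. Cpa3 was at 91.7, 0 and 113 in Het and at 0, 0 and 1.43 in the libraries labelled Ko. The sum was mostly Kit and Hdc in all 6 libraries, while Cma1 was at 1.68, 57.5 and 85.1 in Het and at 233, 0 and 0 in the libraries labelled Ko. The part of B cells or mast cells in the Rgs13 level was not tested.

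Other marker lists had no gene called by limma. Of 12 T cell and thymocyte markers 8 were tested, with sums of 441 to 983 in Het and 688 to 1392 in the libraries labelled Ko. They had 4 positive and 4 negative log2 differences. The largest gene of the latter sums was Themis, at 8.39, 58.9 and 79.4 in Het and at 434, 379 and 908 in the libraries labelled Ko. Its adjusted p was 0.0735 in limma and 4.33e-05 in DESeq2. Trbc1 lay the other way, at 173 ± 170 and 15.9 ± 18.6 (limma adjusted p = 0.270). Of 12 macrophage and dendritic cell markers 9 were tested, with sums of 4772 to 54065 and 1259 to 3147. The highest of these sums, in Het1, was mostly Lyz2, at 53300. The 9 tested had 1 positive and 8 negative log2 differences, with a median of -1.68. The megakaryocyte and platelet sums were 244 to 1079 and 298 to 720 (5 of 8 tested), the pericyte and smooth muscle sums 804 to 1181 and 953 to 2481 (7 of 8), the endothelial sums 2208 to 3753 and 2429 to 3549 (7 of 8) and the fibroblast sums 1250 to 1722 and 1051 to 14128 (8 of 8). The highest fibroblast sum was that of Ko2, mostly Dcn, at 9169, while Ko1 was at 3215 and Ko3 at 1051. The 20 tuft cell markers had 18 positive and 2 negative log2 differences, with a median of 0.35, beside -0.05 over all genes tested. Of these 20 markers 1 rose, against 0.288% of all genes tested. Ptgs1, which encodes a prostaglandin synthase, rose from 3813 ± 1149 to 9203 ± 645 normalized counts (limma adjusted p = 0.0264, edgeR 0.0728). It too kept its call only without Het1, and reached 0.202 without the others. The part of these levels in the RGS values was not tested.

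The genes with the profile most like that of Rgs13 were ranked over the 6 libraries by the root mean square difference of log2(value + 1) profiles, each centred on its own mean, among 13842 other genes with a mean of at least 50. The nearest was Pgm2l1, which encodes a phosphoglucomutase-like enzyme, at a difference of 0.12. It was at 781 ± 101 normalized counts in Het and 1819 ± 487 in the libraries labelled Ko. Ifnlr1, a subunit of the interferon lambda receptor, and Stard5, a lipid-binding protein, followed at 0.16 each, then Ampd3 at 0.17, Ephb3 and Zyx at 0.18 and Dennd4c and Nav3 at 0.19. By construction all had a higher mean in the libraries labelled Ko, from 2.09-fold for Stard5 to 2.78-fold for Dennd4c. Stard5 alone of the 8 was called in the fit (limma adjusted p = 0.0306), and it lost that call without any 1 library but Het1, at up to 0.199. The ranking favours genes with this contrast, so the call is a description, beside 0.814% of all genes tested. Among the other members Rgs19 and Rgs2 were nearest, at 0.55 and 0.58 and at places 1538 and 1885, and Rgs1 was farthest at 3.78.

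**Figure D5:**
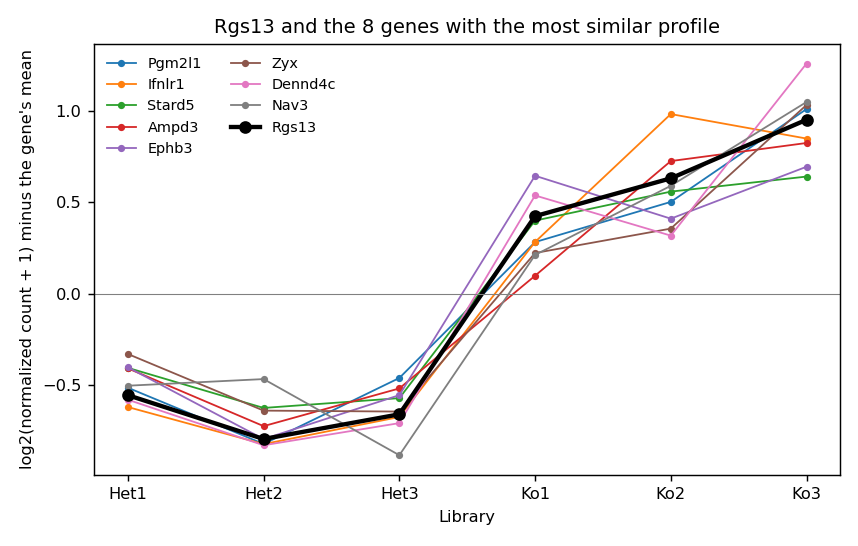
Log2(normalized count + 1) minus each gene's mean over the 6 libraries, for Rgs13 (black) and the 8 genes of most similar profile, with lines that only join the points of 1 gene, since libraries of a group have no order. All 9 genes are lower in the Het libraries than in those labelled Ko, as the ranking by likeness selects.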

How the data were processed

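Per the labels' protocols, RNA of sorted L1CAM+ thymic tuft cells was prepared by SMART-seq. STAR 2.7.9a, DESeq2 and the build GRCm39 are named in the submitters' processing notes. Which read counter, annotation and strand setting were used is not given in the sources used here. Values that the authors deposited are a normalized signal: each gene's count over a size factor of its library. All values above 0 (100%) came out as whole reads within 0.01 reads, and on those reads edgeR called 75 genes. The authors' deposited comparison table holds, per the file headers, log2 fold changes, a Wald score and p-values.

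limma 3.58.1 (R 4.3.3, two-sided, eBayes with trend) compared the genotypes, without covariates, on log2(value + 1), for genes whose mean was 10 or more. P-values were adjusted by Benjamini-Hochberg over these genes at 0.05. With 3 libraries against 3, an exact test of a single gene cannot go below 0.10. Alternatives used edgeR 4.0.16, DESeq2 1.42.0 and voom, other scalings, pseudocounts and filters, and each library left out. The edgeR and DESeq2 runs without each library were added after seeing the data. On simulated counts limma and edgeR were run with planted changes larger than that of Rgs13. Changes of its size, and DESeq2, were not tested there. Symbols were found for 55144 of 55471 identifiers. Lengths and gene order came from GENCODE M21 and promoters from RefSeq, both on GRCm38, another build than the authors', so no position from the deposited files is given.

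The members and all 16 gene lists were chosen with earlier results of these data known. The rule for naming genes took the 10 members, the 8 genes most like Rgs13, and Ikzf1. It added each list's called genes and up to 4 with its smallest p. Not all of the latter are described, so the genes shown are not always the strongest of a list. Markers and flanking genes beyond these are named for their level. Gnat3, Plcb2, Trpm5, Rgs9 and Rgs11 are named for their class or pathway. Replicates differed beyond sampling noise (chi-square per degree of freedom 51.7 to 121). Nothing in the labels says that libraries came from separate animals, so p-values measure only the spread between these samples. Intervals cover counting error only. Reads of SMART-seq libraries without molecular identifiers are not independent molecules. In Het3 and Ko3, with the fewest reads, a count of 3 is worth 4.33 and 4.30 normalized, which limits Rgs18 and the low values of Rgs7.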

Additional observations from a re-analysis of the deposited data

How the results depend on the processing

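The number of genes called was 158, 56 higher and 102 lower in the libraries labelled Ko. It was 239 with a robust variance estimate, 75 with edgeR, 1118 with DESeq2 and 40 with voom. Pseudocounts of 0.5 and 5, no filter, a mean of at least 50, TMM scaling and equal totals gave 136 to 196. Without each library in turn it was 0 to 81 with limma. Leaving out a Het library (1, 2 or 3) gave 120, 6 and 0 genes with edgeR and 1498, 870 and 867 with DESeq2. Leaving out a library labelled Ko (1, 2 or 3) gave 3, 1 and 0 with edgeR and 1219, 1164 and 1014 with DESeq2. Where edgeR called 0 genes, 2175 and 2064 had an unadjusted p under 0.05. The cause of these differences was not tested. No paired analysis was possible because no column names the sample it holds. The labels number the samples in adjacent pairs across the groups, with no number shared and no word on what a number marks. With the column number as a replicate block, which no label supports as a pairing, 87 genes were called.

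The log2 difference of Rgs13 stayed between 1.20 and 1.48 over all 29 alternatives and was called in 22. Without each library it was 1.20 to 1.46 with limma, with adjusted p-values of 0.0141 to 0.131, the call being lost without Het2 or Het3. With edgeR it was 1.44 without Het1, where it was called, and 1.31, 1.36, 1.48, 1.39 and 1.20 without Het2, Het3, Ko1, Ko2 and Ko3, where the adjusted p was 0.0519 to 0.0987. DESeq2 called it in all 6 such runs. Of 47 named genes followed, the 8 called ones kept their sign in every alternative, and 17 others were called in at least 1. Rgs21 was called in 2 of 29, by DESeq2 with all libraries and without Het1. Rgs1 ranged from -7.56 to -0.84 on the log2 scale. The sign differed from the reported one in 16 of 29 alternatives for Rgs4, 6 for Rgs16 and 5 for Rgs10.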

Other observations

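Beyond the genes that flank the chromosome 1 run lie Glrx2 and Trove2 on the side of Rgs2 and Pla2g4a and Ptgs2 on the side of Rgs18. These 4 genes were chosen for position alone. Pla2g4a, the cytosolic phospholipase A2 that frees arachidonic acid, was at 1782 ± 794 normalized counts in Het and 3034 ± 563 in the libraries labelled Ko (limma adjusted p = 0.306). Ptgs2, an inducible prostaglandin synthase, was at 1022 ± 505 and 1399 ± 307 (adjusted p = 0.565). Glrx2 and Trove2 had limma adjusted p-values of 0.732 and 0.863. The groups of Pla2g4a did not overlap, as they did not for 18.4% of all genes tested. Among these 4, the flanking pair and the 4 tested members of the run, Rgs13 was called, against 0.814% of all genes tested. Since Rgs13 was chosen with this contrast known, nothing is read from that call.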
